A study of Mus musculus with 12 samples.

Results

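Toll-like receptors are the germline-encoded sensors of microbial products and of molecules released by damaged cells, and 10 genes of this system were followed here: Tlr1, Tlr2, Tlr4, Tlr6, Tlr7, Tlr8, Tlr9 and Tlr13, the co-receptor gene Cd14 and the adaptor gene Myd88. They were taken by symbol from a deposited table of 52636 mouse genes, with earlier results of these data known. All 10 were among the 16679 genes that passed the filter on low counts. The table comes from bulk RNA sequencing of mouse lung Cx3cr1+ macrophages in 3 groups of 4 libraries. Bleomycin KO libraries are labelled as Il4ra knockout and bleomycin-treated, bleomycin WT libraries as Il4ra wild type and bleomycin-treated, and saline WT libraries as Il4ra wild type and saline-treated. Bleomycin is a drug that injures the lung and is used to induce fibrosis in mice, and Il4ra encodes the receptor chain shared by interleukin-4 and interleukin-13. The labels do not give the animals' age or the time after treatment, nor which Cre or promoter drives the deletion. Whether replicate libraries are separate animals is not stated, and the p-values therefore measure library-to-library spread that may be technical. A saline group with the deletion was not analysed here.

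Tlr1, Tlr2, Tlr4 and Tlr6 act at the cell surface, where Tlr2 pairs with Tlr1 or Tlr6 to bind bacterial lipopeptides and Tlr4 binds lipopolysaccharide handed over by the surface protein Cd14. Tlr7, Tlr8, Tlr9 and Tlr13 sit in endosomes and sense nucleic acids, Tlr13 being a receptor for bacterial ribosomal RNA that mice have. All of these receptors can signal through Myd88, the adaptor that recruits IRAK kinases and leads to NF-kB activation, and macrophages of the lung are among the cells known to carry them.

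The level of a gene is given as CPM, its counts relative to the size of the library, scaled between libraries by the TMM method. Total counts ranged between 8514384 and 16842991 in bleomycin KO, between 9600870 and 18051113 in bleomycin WT, and between 60598 and 10168525 in saline WT. Saline WT 2 is the library with 60598 counts. There 3 counts are worth 32.4 CPM, so a gene with 0 counts in it may stand at up to 32.4 CPM, against 0.185 to 0.730 CPM in the other 11 libraries (counting error only). Bleomycin WT 4 had a TMM factor of 0.579, and its highest Spearman correlation across genes with any other library was 0.730, against 0.939 to 0.986 in the other 7 bleomycin libraries. Saline WT 1 reached 0.658. The macrophage genes Csf1r and Adgre1 were detected in every library, at 273 to 2579 CPM and 162 to 921 CPM. Cx3cr1, which names the labelled cells, was at 86.2 to 121 CPM in bleomycin KO and 7.46 to 113 CPM in bleomycin WT. In saline WT it was at 98.1 to 940 CPM. Bleomycin WT 4 was its lowest library and saline WT 2, with 60598 counts, its highest. Il4ra had 235 to 473 CPM in bleomycin KO, 138 to 626 CPM in bleomycin WT, against 32.4 to 302 CPM in saline WT, and did not differ between KO and WT past the threshold (log2 fold change -0.09, SE 0.58, edgeR adjusted p 0.9998). The counts cover the whole gene, so they do not test a deletion of part of it, and "KO" below means libraries labelled KO. Fold changes of the 10 genes are given from 12 libraries and from the 10 without saline WT 2 and bleomycin WT 4, whose levels were scaled anew.

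The 10 genes were spread over 6 chromosomes in GRCm38, and 2 features of their sequence bear on how their counts can be read. Tlr1 (chr5:64924679-64933563, minus strand) and Tlr6 (chr5:64952031-64960097, minus strand) are neighbours, and 454 of the 3332 distinct 50-base runs in Tlr1 transcripts, 13.6%, also occur in Tlr6 transcripts, where they are 12.3% of 3702. The reads were 50 bases long, and the treatment of reads that match both genes is not known from the labels or files, so the 2 genes' levels are uncertain to that extent. The longest coding stretch that is identical in both genes, from GENCODE vM21 transcripts, spans 229 bases at chr5:64925537-64925765 in Tlr1 and chr5:64953828-64954056 in Tlr6, minus strand, and is shown because no read of the library's length that lies inside it can be assigned to 1 of the 2 genes. It covers coding bases 1468 to 1696 of Tlr1 and 1507 to 1735 of Tlr6.
Tlr1 and Tlr6 shared stretch: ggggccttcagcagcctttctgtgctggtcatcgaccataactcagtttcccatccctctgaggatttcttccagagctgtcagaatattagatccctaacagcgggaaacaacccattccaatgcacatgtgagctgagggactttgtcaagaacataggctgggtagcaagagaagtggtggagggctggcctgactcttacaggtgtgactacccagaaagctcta
Myd88 shares 223 exonic bases, 11.4% of its exons, with Acaa1a on the opposite strand, and the kit does not mark strand. Acaa1a stood at 9.42 to 107 CPM over all libraries. Tlr2, Tlr7, Tlr8, Tlr9, Tlr13 and Cd14 shared no 50-base run with another gene, and Tlr4 shared 12 of 5551.

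For Tlr2, Tlr8 and Tlr13 the bases just before the transcription start, up to 250 and outside annotated exons, are shown because Tlr2 was the most abundant receptor transcript, and because Tlr8 and Tlr13 were low together in the same library, as described below. They are RefSeq windows on GRCm38.p6, at chr3:83841768-83841858 (minus strand) for Tlr2, chrX:167264330-167264579 (minus strand) for Tlr8 and chrX:106143025-106143203 (plus strand) for Tlr13. Capitals mark matches, on either strand, to GAGGAA, a core of PU.1 sites, and to GGGNNNNNCC, a short form of the NF-kB site.
Tlr2: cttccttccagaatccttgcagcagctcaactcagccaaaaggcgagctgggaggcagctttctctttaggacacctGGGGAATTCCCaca
Tlr8: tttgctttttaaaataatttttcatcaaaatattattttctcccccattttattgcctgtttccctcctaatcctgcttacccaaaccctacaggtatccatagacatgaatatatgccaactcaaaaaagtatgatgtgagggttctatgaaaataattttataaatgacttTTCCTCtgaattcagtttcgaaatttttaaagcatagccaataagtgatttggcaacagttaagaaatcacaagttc
Tlr13: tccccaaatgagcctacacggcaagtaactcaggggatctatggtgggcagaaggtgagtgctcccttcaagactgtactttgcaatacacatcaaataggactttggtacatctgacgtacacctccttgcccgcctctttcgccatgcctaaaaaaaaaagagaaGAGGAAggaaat
The Tlr2 window holds 3 matches to GGGNNNNNCC that overlap in the single run of capitals and 0 to GAGGAA, while the windows of Tlr8 and Tlr13 hold 1 match to GAGGAA each. Among windows not shown, 1 of Tlr1 and that of Tlr9 also hold 1 match to GAGGAA each. In bleomycin WT 4, Tlr1 and Tlr9 lay within the range of the other 7 bleomycin libraries. Any link between these matches and the levels was not tested. Of 32851 windows of 250 bases before annotated starts, 45.8% hold GGGNNNNNCC and 23.3% hold GAGGAA, so both matches are common in windows of that length. The windows shown for Tlr2 and Tlr13 are shorter, at 91 and 179 bases, and shares for those lengths were not computed. The table held promoter windows for 7 of the 10 genes.

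Per length of exon the order of the genes was led by Cd14, at 2570 ± 373 CPM per kb (SD over the 10 libraries without saline WT 2 and bleomycin WT 4), followed by Tlr2 at 692 ± 119 and Myd88 at 108 ± 40.9 CPM per kb. Cd14 and Tlr2 did not overlap over these libraries, nor did Tlr2 and Myd88. Tlr13, at 71.6 ± 23.3 CPM per kb, overlapped with Myd88 and lay above the next gene in every one of these libraries. Tlr7 (25.4 ± 11.5), Tlr8 (24.8 ± 3.20), Tlr4 (22.6 ± 5.44) and Tlr1 (17.4 ± 3.65 CPM per kb) each overlapped with the next in the order. Tlr6, at 7.15 ± 3.90 CPM per kb, lay above Tlr9 without overlap. Tlr9 was close to absent, at 0.230 ± 0.227 CPM per kb.

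**Figure D1:**
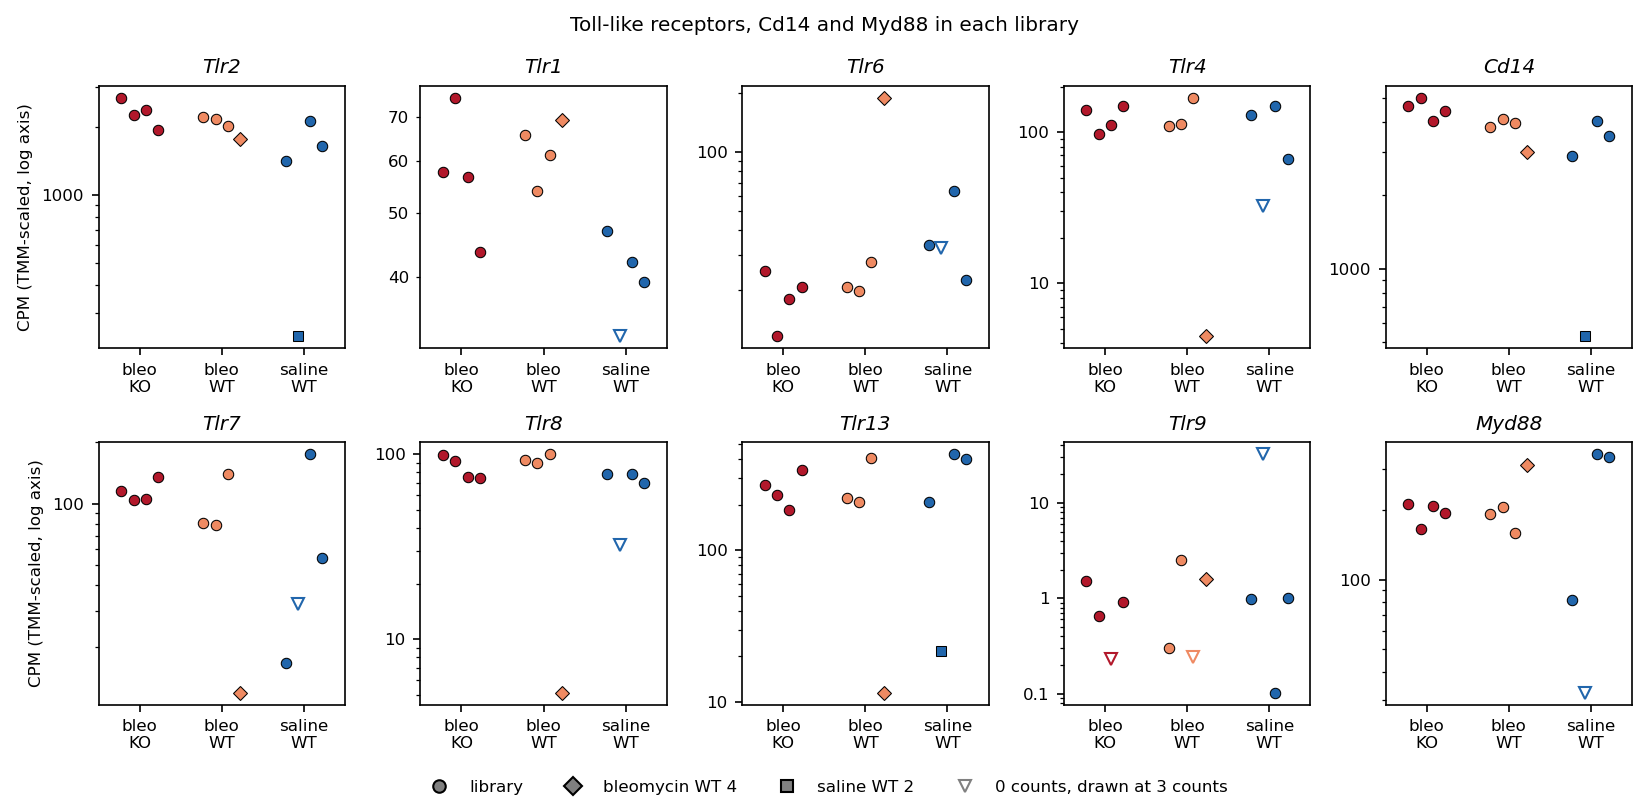
CPM (log axis) of each gene in each library, with bleomycin KO, bleomycin WT and saline WT from left to right; diamonds are bleomycin WT 4, squares saline WT 2, and open triangles libraries with 0 counts, drawn at the level of 3 counts. Bleomycin WT 4 lies far below the other bleomycin libraries for Tlr4, Tlr7, Tlr8 and Tlr13 and far above them for Tlr6, and the other libraries of the groups mostly overlap.

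Tlr2, the lipopeptide receptor that pairs with Tlr1 or Tlr6, was at 2684, 2256, 2374 and 1931 CPM in bleomycin KO, 2205, 2176, 2027 and 1776 CPM in bleomycin WT, against 1415, 238, 2125 and 1650 CPM in saline WT. Both bleomycin groups lay above saline WT 1, 2 and 4, and saline WT 3 lay inside them. Bleomycin WT 4, which stands apart for other receptors, was the lowest bleomycin library here but only 1.24-fold below the median of the other 7. The log2 fold changes were 0.59 (SE 0.47) for bleomycin WT against saline WT, 0.18 (SE 0.47) for bleomycin KO against bleomycin WT and 0.76 (SE 0.47) for bleomycin KO against saline WT, with edgeR adjusted p of 0.587, 0.9998 and 0.683. Over the 10 libraries they were 0.28 (95% interval -0.12 to 0.68), 0.12 (-0.25 to 0.50) and 0.40 (0.03 to 0.78), and the last had an edgeR adjusted p of 0.271.

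Tlr1 stood at 57.7, 74.8, 56.8 and 43.5 CPM in bleomycin KO, 65.7, 54.1, 61.2 and 69.3 CPM in bleomycin WT, against 46.9, 0, 42.0 and 39.2 CPM in saline WT. The lowest bleomycin WT library exceeded the highest saline WT library, and KO 4 lay below saline WT 1. The log2 fold change of bleomycin WT against saline WT was 0.82 (SE 0.59, edgeR adjusted p 0.534), and 0.47 (95% interval -0.12 to 1.06, edgeR adjusted p 0.447) in the 10 libraries. For bleomycin KO the log2 fold change was -0.10 (SE 0.58) against bleomycin WT and 0.71 (SE 0.59) against saline WT in 12 libraries, and -0.04 (SE 0.25) and 0.43 (SE 0.25) in 10.

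Tlr6, the other partner of Tlr2, was at 25.0, 11.6, 17.9 and 20.7 CPM in bleomycin KO, 20.8, 19.6, 27.7 and 188 CPM in bleomycin WT, against 33.6, 0, 63.6 and 22.4 CPM in saline WT. Bleomycin WT 4, at 188 CPM, was 9.08 times the median of the other 7 bleomycin libraries, whose highest was 27.7 CPM. Leaving out that library together with saline WT 2 moved the comparisons with bleomycin WT. The log2 fold change of bleomycin KO against bleomycin WT was -1.77 (SE 0.84, edgeR adjusted p 0.9998) in 12 libraries and -0.26 (95% interval -1.16 to 0.64) in 10. That of bleomycin WT against saline WT was 0.95 (SE 0.84) in 12 libraries and -0.83 (SE 0.44) in 10, the opposite sign. Against saline WT, bleomycin KO was at -0.81 (SE 0.83) in 12 libraries and -1.10 (SE 0.41, edgeR adjusted p 0.217) in 10, where saline WT 1 and 3 lay above all 4 KO libraries and saline WT 4 among them. An adjusted p of 0.217 was the smallest that any of the 10 genes reached in any comparison or alternative.

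Per length, Tlr1 exceeded Tlr6 in all 7 bleomycin libraries other than bleomycin WT 4, with ratios of 2.47 to 7.60 in bleomycin KO and 2.61 to 3.73 in bleomycin WT 1 to 3. The ratio was 0.434 in bleomycin WT 4, and 1.65, 0.779 and 2.06 in saline WT 1, 3 and 4. Tlr6 therefore exceeded Tlr1 in 2 libraries, bleomycin WT 4 and saline WT 3.

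Tlr4, the lipopolysaccharide receptor, was at 141, 96.7, 112 and 148 CPM in bleomycin KO, 110, 113, 168 and 4.44 CPM in bleomycin WT, against 130, 0, 149 and 66.5 CPM in saline WT. The 3 groups overlapped, and bleomycin WT 4, with 25 counts, was 25.5-fold below the median of the other bleomycin libraries. The log2 fold changes were 0.12 (SE 0.83) for bleomycin WT against saline WT, 0.33 (SE 0.83) for bleomycin KO against bleomycin WT and 0.44 (SE 0.84) for bleomycin KO against saline WT. In the 10 libraries they were 0.15 (95% interval -0.56 to 0.87), -0.06 (-0.73 to 0.60) and 0.09 (-0.58 to 0.76). Ly96, the MD-2 protein that Tlr4 needs to bind its ligand, was at 20.5 to 36.7 CPM in bleomycin KO, 14.2 to 46.0 CPM in bleomycin WT, against 0 to 35.9 CPM in saline WT.

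Cd14 was the most abundant of the 10 transcripts, at 4655, 5004, 4009 and 4419 CPM in bleomycin KO, 3821, 4102, 3944 and 3003 CPM in bleomycin WT, against 2908, 530, 4042 and 3492 CPM in saline WT. KO 1, 2 and 4 lay above every library of the other groups, and KO 3 among them. Scaled over the 10 libraries alone, KO 3 stood at 4066 CPM, just above the highest bleomycin WT library at 4059 CPM and the highest saline WT library at 4055 CPM, so whether Cd14 overlapped between the groups depended on the scaling. The log2 fold changes were 0.44 (SE 0.45) for bleomycin WT against saline WT, 0.28 (SE 0.45) for bleomycin KO against bleomycin WT and 0.72 (SE 0.45) for bleomycin KO against saline WT, with edgeR adjusted p of 0.683, 0.9998 and 0.687. Over the 10 libraries they were 0.16 (95% interval -0.18 to 0.51), 0.20 (-0.12 to 0.53) and 0.37 (0.04 to 0.69), the last with an edgeR adjusted p of 0.256. The ratio of Cd14 to Tlr2 varied little between libraries: per length, Cd14 was 3.24 to 4.39 times Tlr2 in bleomycin KO, 3.24 to 3.73 times in bleomycin WT and 3.65 to 4.27 times in saline WT, although saline WT 2 rests on 49 and 22 counts.

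Among the endosomal receptors, Tlr7, Tlr8 and Tlr13 were low in bleomycin WT 4, as the surface receptor Tlr4 was, and Tlr9 was not. Tlr7, a receptor for single-stranded RNA, was at 116, 104, 106 and 135 CPM in bleomycin KO, 80.9, 78.6, 139 and 11.9 CPM in bleomycin WT, against 16.5, 0, 175 and 54.6 CPM in saline WT. The KO libraries were close together and saline WT spanned both ends of the range. Its log2 fold changes were 0.23 (SE 0.82) for bleomycin WT against saline WT, 0.57 (SE 0.82) for bleomycin KO against bleomycin WT and 0.80 (SE 0.83) for bleomycin KO against saline WT. Over the 10 libraries they were 0.27 (95% interval -1.10 to 1.63), 0.22 (-1.06 to 1.5) and 0.49 (-0.80 to 1.78).

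Tlr8, its close relative on the X chromosome, was at 99.0, 91.7, 75.5 and 74.3 CPM in bleomycin KO, 93.0, 90.1, 100 and 5.15 CPM in bleomycin WT, against 78.1, 0, 78.0 and 70.1 CPM in saline WT. Without bleomycin WT 4 and saline WT 2 the whole range was 70.1 to 100 CPM, and bleomycin WT 1 to 3 lay above saline WT 1, 3 and 4. The log2 fold changes in the 10 libraries were 0.30 (95% interval -0.16 to 0.76) for bleomycin WT against saline WT, -0.14 (-0.57 to 0.29) for bleomycin KO against bleomycin WT and 0.16 (-0.28 to 0.59) for bleomycin KO against saline WT. In 12 libraries they were 0.24 (SE 0.77), 0.24 (SE 0.76) and 0.48 (SE 0.77).

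Tlr13 was the most abundant endosomal receptor, at 272, 231, 185 and 337 CPM in bleomycin KO, 222, 210, 407 and 11.6 CPM in bleomycin WT, against 210, 21.6, 431 and 402 CPM in saline WT. Saline WT 3, saline WT 4 and bleomycin WT 3 were the highest libraries, and bleomycin WT 4 was 20.03-fold below the median of the other bleomycin libraries. The log2 fold changes were -0.35 (SE 0.79) for bleomycin WT against saline WT, 0.27 (SE 0.79) for bleomycin KO against bleomycin WT and -0.09 (SE 0.79) for bleomycin KO against saline WT. Over the 10 libraries they were -0.33 (95% interval -1.09 to 0.43), -0.12 (-0.83 to 0.59) and -0.45 (-1.15 to 0.26).

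Tlr9, the receptor for unmethylated CpG DNA, had 24, 10, 0 and 8 counts in bleomycin KO, 3, 41, 0 and 9 counts in bleomycin WT, and 4, 0, 1 and 7 counts in saline WT. The highest level was 2.53 CPM, in bleomycin WT 2, and 0 counts allow up to 0.232 CPM in KO 3, 0.243 CPM in bleomycin WT 3, but 32.4 CPM in saline WT 2. Intervals of its log2 fold changes spanned more than 5 units of log2, from -2.46 to 3.93, from -3.41 to 2.38 and from -2.95 to 3.39 in the 3 comparisons, so a change in it was not detectable at this depth. In the 10 libraries they were wider still, from -3.53 to 4.39, from -3.90 to 3.32 and from -3.59 to 3.86.

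Tlr7, Tlr8 and Tlr13 are X-linked. Xist, the transcript of the inactive X chromosome, was at 0 to 1.74 CPM in all 12 libraries, and the Y-linked gene Eif2s3y was at 20.4 to 98.3 CPM, so every library held Y-linked and almost no Xist RNA. Y-linked Ddx3y was at 84.2 to 1657 CPM. Bleomycin WT 4 was the lowest library for Eif2s3y and the highest for Ddx3y. Uty and Kdm5d, also Y-linked, were at 0 in saline WT 2 only.

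Myd88, the shared adaptor, was at 213, 166, 209 and 193 CPM in bleomycin KO, 193, 206, 158 and 314 CPM in bleomycin WT, against 82.0, 0, 349 and 340 CPM in saline WT. The bleomycin libraries other than bleomycin WT 4 lay between 158 and 213 CPM, and saline WT lay on both sides of them. The log2 fold changes were 0.13 (SE 0.71) for bleomycin WT against saline WT, -0.16 (SE 0.71) for bleomycin KO against bleomycin WT and -0.03 (SE 0.71) for bleomycin KO against saline WT. In the 10 libraries they were -0.48 (95% interval -1.39 to 0.44), 0.08 (-0.77 to 0.93) and -0.40 (-1.25 to 0.45), so the first 2 changed sign.

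Saline WT 3 and 4, the highest libraries for Myd88, were also the highest for the summed markers of neutrophils, non-classical monocytes, B cells and the list for mast cells, basophils and eosinophils. The summed level of 12 neutrophil genes was 1234 to 2019 CPM in bleomycin KO, 568 to 1686 CPM in bleomycin WT, against 2695, 3697, 30223 and 18398 CPM in saline WT 1 to 4. S100a9 and S100a8 were the most abundant of them, and the defining gene Ly6g was at 0 in bleomycin KO 2, bleomycin WT 4, saline WT 1 and saline WT 2. Of the 12 genes 0 passed the threshold in any comparison in 12 libraries, and 12 of 12 had a negative log2 fold change in both comparisons with saline WT (median -3.22 for bleomycin WT and -3.26 for bleomycin KO). In the 10 libraries the medians were -3.08 and -3.25, and 12 of 12 were again negative in both. Of the 12, 1 and 3 passed the threshold as lower, beside 0.431% and 0.643% of all tested genes that passed in either direction. Non-classical monocyte markers summed to 4102 and 3161 CPM in saline WT 3 and 4, against at most 2233 CPM elsewhere. B cell markers summed to 847 and 1600 CPM there, against at most 610 CPM. The list for mast cells, basophils and eosinophils summed to 1769 and 1200 CPM, against at most 718 CPM. Hdc made up nearly all of that last sum, reaching 1749 CPM among saline libraries. Its maximum among the bleomycin WT libraries was 717 CPM. Ccr3, next in abundance on that list, averaged 3.37 CPM over the 12 libraries. That sum is therefore mainly the level of Hdc, and does not show that these cell types were present. Tlr13 and Tlr6 were high in saline WT 3 as well, and the part of these markers in the levels was not tested. In bulk RNA, fewer cells of a type and less RNA per cell cannot be told apart.

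The comparison of bleomycin WT with saline WT asks what differs with injury in wild-type cells. The edgeR quasi-likelihood test with Benjamini-Hochberg adjustment called 0 of the 10 genes, beside 4 of 16679 tested genes (0.024%). In that test 0 of the 10 had an unadjusted p under 0.05, against 2444 of all tested genes (14.7%). DESeq2 and limma-voom also called 0 of the 10 in each of the 3 comparisons. The median log2 fold change of the 10 was 0.34 in 12 libraries, against 0.08 for all tested genes, and 9 of the 10 were positive. The share of all tested genes that were positive was not computed. In 1 of the 10 genes, Tlr1, the groups did not overlap, beside 5.86% of tested genes. The fit of 10 libraries called 0 of the 10 genes, beside 81 of 18812 tested genes (0.431%), and the groups did not overlap for Tlr1 and Tlr8, 2 of 10, beside 20.6% of tested genes. The median of all tested genes shifted to -0.14 there, and that of the 10 genes was 0.21. Tlr6, Tlr13 and Myd88 were negative in that fit, at -0.83, -0.33 and -0.48.

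The comparison of bleomycin KO with bleomycin WT asks what the Il4ra deletion changes in injured lung. It called 0 of the 10 genes and 0 of 16679 tested genes (0%) in 12 libraries. There 0 of the 10 and 647 of all tested genes (3.88%) had an unadjusted p under 0.05. In 10 libraries it called 0 of the 10 and 0 of 18812 genes (0%), with 173 (0.92%) at an unadjusted p under 0.05. DESeq2 in 12 libraries called 1 gene, not among the 10. The median log2 fold change of the 10 was 0.21 in 12 libraries and -0.05 in 10, against -0.01 and -0.02 for all tested genes. The groups did not overlap for 0 of the 10 in 12 libraries, beside 1.5% of tested genes, and for 1 of the 10, Cd14, in 10 libraries, beside 3.18%. The 95% intervals in the 10 libraries were narrowest for Cd14 (-0.12 to 0.53) and Tlr2 (-0.25 to 0.50), and wider for Tlr6, Tlr7, Tlr9 and Myd88, where larger changes in either direction would not have been detected.

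The comparison of bleomycin KO with saline WT shares its saline libraries with the first comparison and its KO libraries with the second, so it is no independent check of either. It called 0 of the 10 genes beside 3 of 16679 tested genes (0.018%) in 12 libraries, and 0 beside 121 of 18812 (0.643%) in 10. In 12 libraries 0 of the 10 and 1506 of all tested genes (9.03%) had an unadjusted p under 0.05. The groups did not overlap for 0 of the 10 in 12 libraries, beside 9.21% of tested genes, and for 1 of the 10, Cd14, in 10 libraries, beside 16%. In 10 libraries 3 of the 10, Tlr2, Tlr6 and Cd14, had an unadjusted p under 0.05, against 3161 of all tested genes (16.8%). The medians of the 10 genes were 0.46 and 0.15, against 0.04 and -0.15 for all tested genes.

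**Figure D2:**
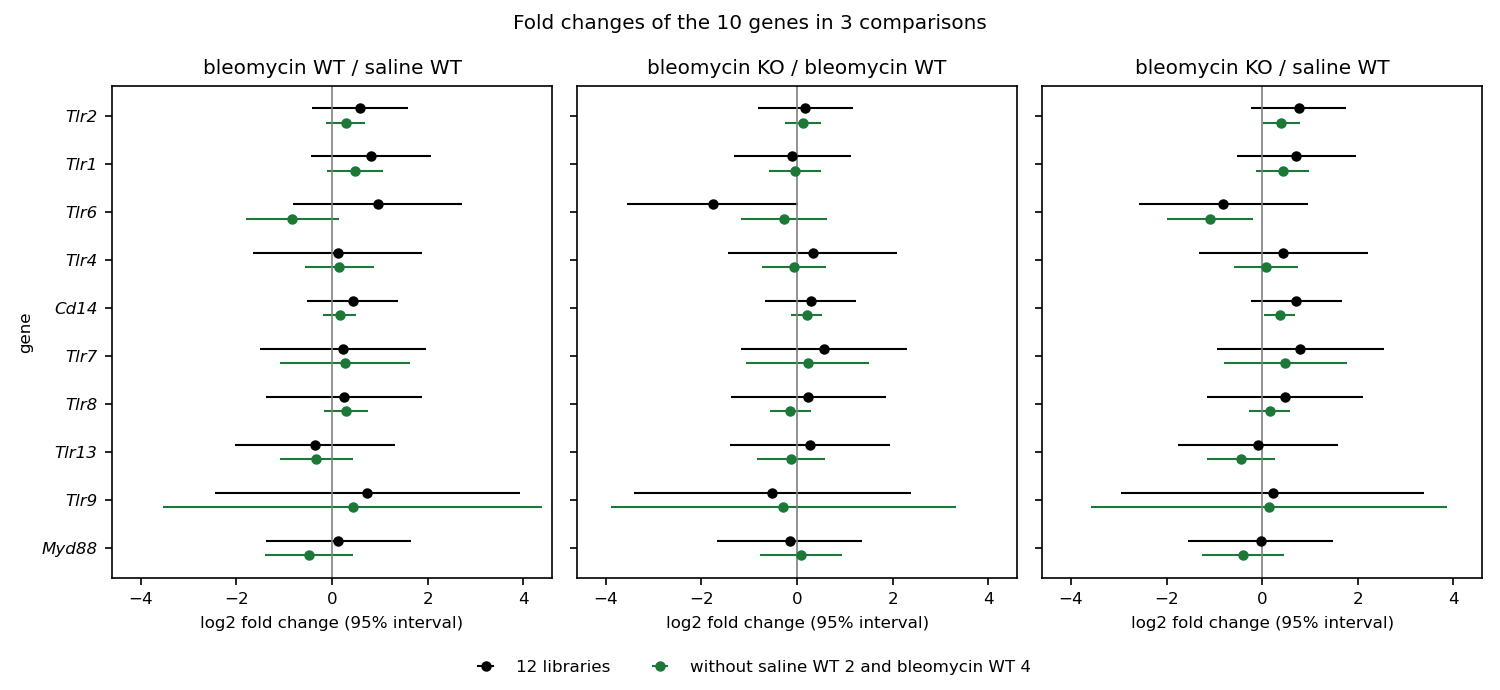
Log2 fold change with its 95% interval (edgeR) for each gene in the 3 comparisons, in 12 libraries (black) and without saline WT 2 and bleomycin WT 4 (green). Intervals narrow in the 10 libraries for all genes except Tlr9, and Tlr6 is among the genes that change sign, for bleomycin WT against saline WT.

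Bleomycin WT 4 differed from the other 7 bleomycin libraries in a way that split the 10 genes. Tlr4, Tlr8, Tlr13 and Tlr7 were 25.5-, 17.8-, 20.03- and 8.90-fold below the median of the other 7. Tlr2 and Cd14 were 1.24- and 1.37-fold below it, Tlr1 lay within the other libraries' range at 1.20 times the median, and Myd88 was at 1.62 times and Tlr6 at 9.08 times the median. Such departures were frequent in this library: of 8891 tested genes with a median of 10 CPM or more in the other 7, 20.2% were under an eighth of it in bleomycin WT 4, 5.45% were over 8 times it, and 16.4% were within 1.5-fold. The summed level of 7 macrophage markers was 38785 to 59720 CPM in bleomycin KO, 39266 to 42847 CPM in bleomycin WT 1 to 3 and 20255 CPM in bleomycin WT 4, with none of them at 0. That of 8 non-classical monocyte markers was 1182 to 1987 CPM in bleomycin KO, 959 to 2233 CPM in bleomycin WT 1 to 3 and 299 CPM in bleomycin WT 4, with none at 0. That of 8 endothelial markers was 73.8 to 145 CPM in bleomycin KO, 82.2 to 144 CPM in bleomycin WT 1 to 3 and 708 CPM in bleomycin WT 4, where Cldn5 and Tek were at 0 and Calcrl alone was at 477 CPM. Lyz2 made up most of the macrophage sum, at 14487 CPM in bleomycin WT 4. Other macrophage markers split there: Csf1r at 273 CPM and Cx3cr1 at 7.46 CPM lay below the other bleomycin libraries. Adgre1 at 680 CPM lay within their range and Cd68 at 4718 CPM above it. Nr4a1 was the most abundant non-classical monocyte marker, at 62.2 to 1762 CPM in bleomycin WT. The part of these markers in the receptor levels was not tested.

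**Figure D3:**
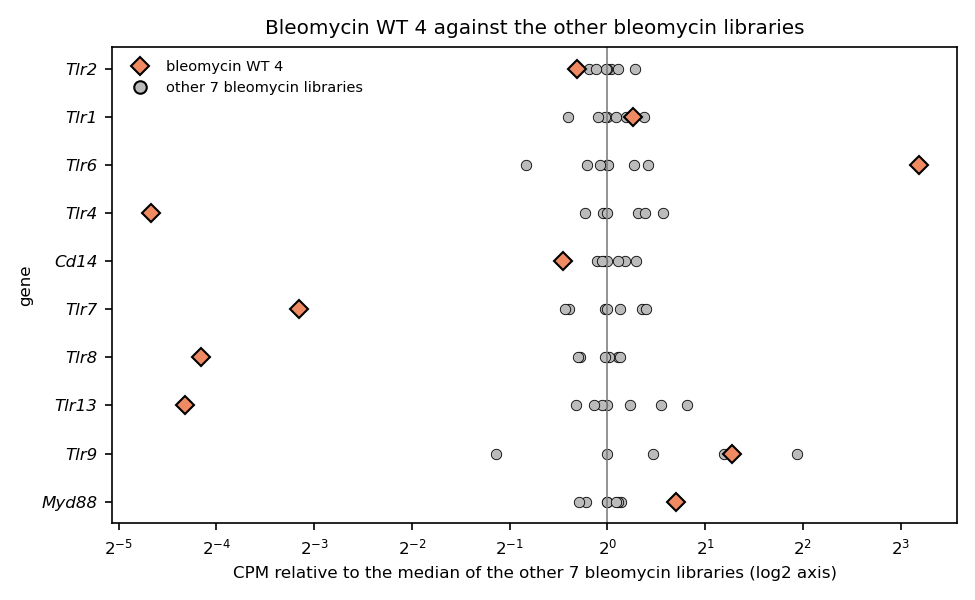
CPM of bleomycin WT 4 (diamonds) and of the other 7 bleomycin libraries (circles) relative to the median of those 7, on a log2 axis, for each gene; Tlr9 has 0 counts in 2 of the 7, which are not drawn. Tlr4, Tlr7, Tlr8 and Tlr13 lie 8.90- to 25.5-fold below the median, Tlr6 lies 9.08-fold above it, and Tlr1, Tlr2, Cd14 and Myd88 lie near it.

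Set against each other per length, surface receptors outweighed endosomal ones in every library. The summed level of Tlr7, Tlr8, Tlr9 and Tlr13 as a share of all 8 receptors was 11.8%, 12.2%, 10.2% and 16.8% in bleomycin KO, 11.6%, 11.4%, 18.4% and 1.16% in bleomycin WT, and 13.2%, 6.32%, 18.5% and 18.7% in saline WT. Bleomycin WT 4 held the lowest share, saline WT 2 rests on 2 endosomal counts, and the other 10 libraries of the 3 groups overlapped. Tlr2 made up 77.5% to 85.1% of the summed level in bleomycin KO, 75.1% to 87.8% in bleomycin WT and 75.3% to 93.7% in saline WT. Tlr1, Tlr4 and Tlr6 made up at most 3.31%, 3.98% and 7.63% of it in any library. Without Tlr2, the surface receptors lay below the endosomal ones in every library except bleomycin WT 4. Tlr13 was the largest endosomal part in 11 of the 12 libraries, the exception being bleomycin WT 4, where Tlr7 made up 0.447% and Tlr13 0.424% of the sum.

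**Figure D4:**
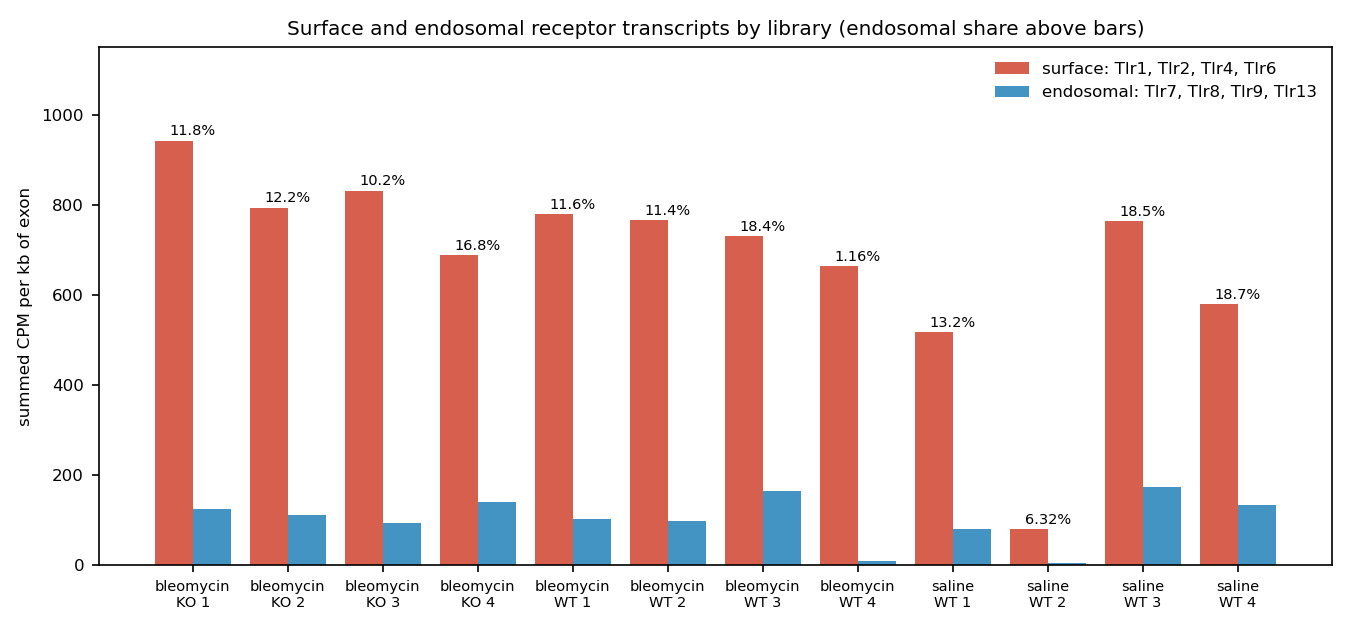
Summed CPM per kb of exon for the 4 surface receptors (red) and the 4 endosomal receptors (blue) in each library, with the endosomal share of the sum above the bars. The share is 10.2% to 18.7% in 10 libraries, 1.16% in bleomycin WT 4 and 6.32% in saline WT 2.

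Within the 4 KO libraries the spread of most of the genes was at or below the median of other tested genes, which were not matched to them by level. The coefficient of variation was 9.25% for Cd14, 10.8% for Myd88, 12.4% for Tlr7, 13.5% for Tlr2, 14.3% for Tlr8, 19.3% for Tlr4 and 22.0% for Tlr1, against a median of 22.5% over the 8951 tested genes at 10 CPM or more. It was 25.1% for Tlr13, 29.8% for Tlr6 and 81.1% for Tlr9.

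Across 11 libraries, without saline WT 2, the profile of each gene was compared with those of all tested genes by the root mean square difference of log2 CPM after centring each gene on its mean. Cd14 and Tlr2 were among each other's closest profiles, with a difference of 0.15 on the log2 scale: Cd14 ranked 2 of 16678 for Tlr2, after Erap1, and Tlr2 ranked 3 for Cd14, after Gm28731 and Atp5d. Both vary little between libraries, which keeps such a difference small. Tlr4 and Tlr8 differed by 0.38, and each differed from Tlr13 by 0.50, these 3 sharing the low value in bleomycin WT 4. The closest genes were Prelid1 for Tlr1, Parg and Gm12312 for Tlr4, Lbhd1 and Tbc1d10c for Tlr6, Stam and Aifm2 for Tlr7, Haus8 and Cct5 for Tlr8, Gemin7 and Zbtb14 for Tlr13, and Mtmr14 and Ypel3 for Myd88.

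Of 50 other genes of the pathway, in 7 lists, all were tested and 0 were called in any of the 3 comparisons in 12 libraries. In bleomycin WT against saline WT 34 had a positive and 16 a negative log2 fold change, with a median of 0.26, against 0.08 for all tested genes, and 8 had an unadjusted p under 0.05 (16%, against 14.7% of all tested genes). In bleomycin KO against bleomycin WT the counts were 28 and 22, the median 0.07, and 3 had an unadjusted p under 0.05 (6%, against 3.88%). In bleomycin KO against saline WT the counts were 32 and 18, the median 0.26, and 7 had an unadjusted p under 0.05 (14%, against 9.03%). These shares lie near those of all tested genes.

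The endosomal proteases, which cut endosomal Toll-like receptors into their active form, stood furthest from 0 among the 7 lists in the comparisons with saline WT. In 12 libraries the 4 genes Ctsb, Ctss, Ctsl and Lgmn had a median log2 fold change of 1.80 for bleomycin WT and 1.67 for bleomycin KO against saline WT, and -0.13 for bleomycin KO against bleomycin WT. Ctss, cathepsin S, was at 8051 to 11833 CPM in bleomycin KO, 7831 to 10639.5 CPM in bleomycin WT, against 2445 to 4339 CPM in saline WT. Both bleomycin groups lay above saline WT without overlap, and the log2 fold changes of 1.36 (SE 0.30) for bleomycin WT and 1.48 (SE 0.30) for bleomycin KO did not pass (edgeR adjusted p 0.162 and 0.171). In the 10 libraries Ctsb and Ctss passed the threshold as higher in both bleomycin groups against saline WT, 2 of the 50 genes in each comparison. Of all tested genes 0.431% passed for bleomycin WT and 0.643% for bleomycin KO, in either direction. Ctsb, cathepsin B, averaged 10557 ± 2382 CPM in bleomycin WT, against 3259 ± 260 CPM in saline WT (SD, n = 3 each), a log2 difference of 1.70 with an edgeR adjusted p of 0.0154. Its log2 fold change in bleomycin KO was 1.53 (edgeR adjusted p 0.0111). Ctss had log2 fold changes of 1.39 in bleomycin WT (edgeR adjusted p 0.0464) and 1.49 in bleomycin KO (edgeR adjusted p 0.0293). The median over the 50 genes was 0.06 and 0.04 in these fits. The other 2 proteases did not pass there: Ctsl, cathepsin L, had log2 fold changes of 2.16 in bleomycin WT and 1.62 in bleomycin KO, and Lgmn, legumain, 1.59 and 1.33. Several marker lists differed between the same groups. Lung epithelial markers summed to 173 to 646 CPM in bleomycin KO, 264 to 874 CPM in bleomycin WT, against 1467 to 2347 CPM in saline WT, without overlap, and the neutrophil sums given above were also higher in every saline WT library than in any bleomycin library. Sftpc and Scgb1a1 were the most abundant of the 8 epithelial genes. In 12 libraries 6 of them had a negative and 2 a positive log2 fold change in each comparison with saline WT. Cdh1 was at 1.77 in bleomycin WT and 1.41 in bleomycin KO. Macrophage markers summed to 38785 to 59720 CPM in bleomycin KO, 20255 to 42847 CPM in bleomycin WT, against 11566 to 31641 CPM in saline WT, where the last 2 groups overlapped through bleomycin WT 4. Lyz2 made up most of these sums. Of the 7 genes, 5 had a positive and 2 a negative log2 fold change in each comparison with saline WT in 12 libraries. Cx3cr1 was at -2.54 in bleomycin WT and -1.77 in bleomycin KO. The part of these markers in the protease levels was not tested.

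In bleomycin KO against bleomycin WT the pathway genes with the smallest p were Cd180, Traf3, Tbk1 and Rela, at log2 fold changes of -1.89, -1.62, -1.61 and -0.94, each with an edgeR adjusted p of 0.9998. Their highest bleomycin WT library was at 177, 262, 984 and 357 CPM, against at most 24.2, 54.4, 118 and 135 CPM in bleomycin KO. That library was bleomycin WT 4 for all 4 genes, and in the 10 libraries the log2 fold changes were -0.59, -0.36, 0.10 and -0.43, so that of Tbk1 changed sign. Cd180 is a Toll-like-receptor relative of B cells and macrophages, Traf3 and Tbk1 act in the interferon branch and Rela is a subunit of NF-kB. Of the 4 other mouse receptor genes Tlr3, Tlr5, Tlr11 and Tlr12, Tlr3 averaged 36.7 ± 7.15 CPM in bleomycin KO, 17.1 ± 10.6 CPM in bleomycin WT, against 30.6 ± 38.2 CPM in saline WT (SD, n = 4 each). Saline WT 2 was at 86.5 CPM and bleomycin WT 4 at 1.95 CPM, and in the 10 libraries the means were 37.0 CPM in bleomycin KO, 22.1 CPM in bleomycin WT, against 12.1 CPM in saline WT, so the log2 fold change of bleomycin WT against saline WT was -0.47 in 12 libraries and 0.86 in 10. Tlr11 and Tlr12 did not exceed 12.3 CPM in any library.

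**Figure D5:**
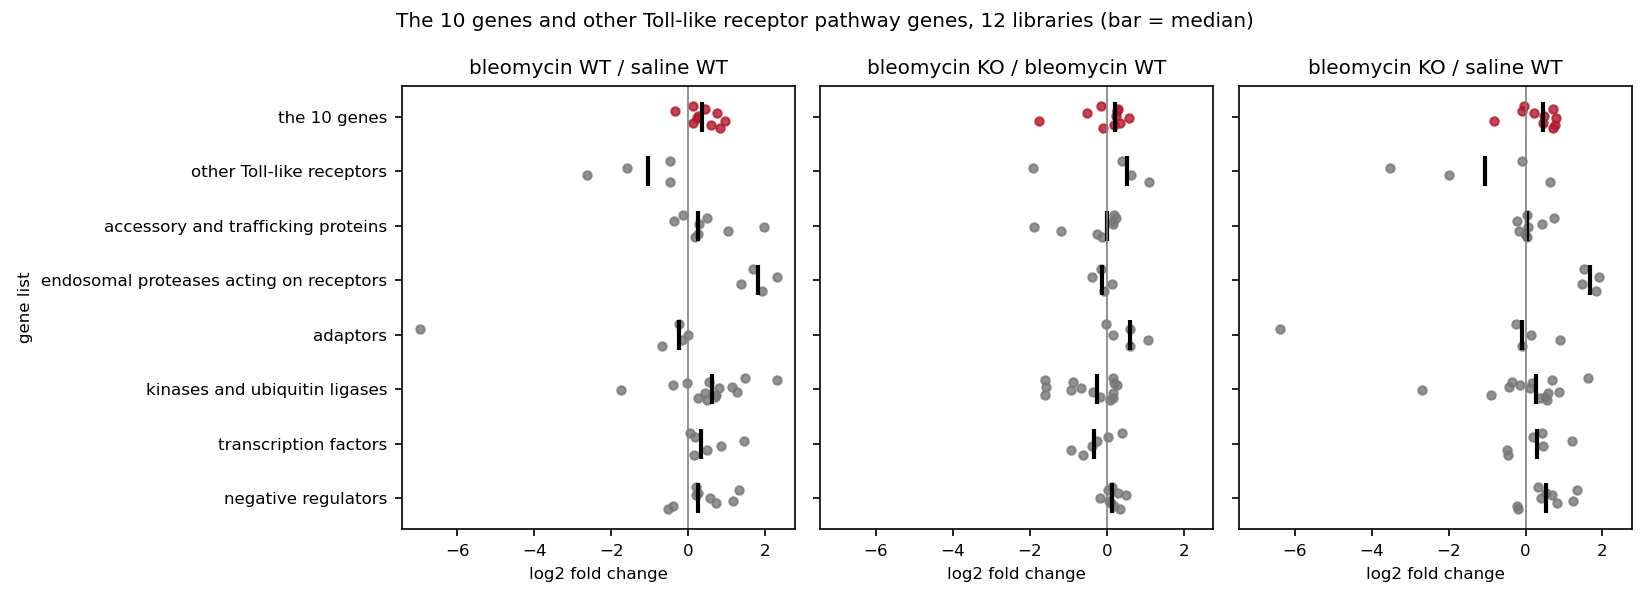
Log2 fold changes in 12 libraries of the 10 genes (red) and of 50 other pathway genes in 7 lists (grey), with the median of each list as a bar, in the 3 comparisons. The endosomal proteases have medians of 1.80 and 1.67 in the comparisons with saline WT, while the other lists lie nearer 0 and the lowest adaptor point is Sarm1, which reaches 1654 CPM in saline WT 2.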

How the data were processed

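Bulk RNA-seq libraries of mouse lung Cx3cr1+ macrophages fall into 3 groups of 4 by their labelled treatment and genotype. Per the labels' protocols, the SMART-Seq v4 kit, which does not mark strand, gave the cDNA, Nextera XT the libraries, and reads were single-end and 50 bases long. Per the submitters' processing notes, the tools were GSNAP, limma and Partek and the builds GRCm38 and mm10, with no version or setting given there. The deposited table holds raw counts per Ensembl gene, whole numbers made by the authors. The series' design text describes another experiment and was not used.

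From these counts, CPM was computed with TMM-scaled library sizes, and CPM per kb with the deposited exonic size. The test was edgeR 4.0.16 (R 4.3.3): filterByExpr by group, TMM, glmQLFit with robust dispersion and glmQLFTest on all 12 libraries with group as the only term, adjusted by Benjamini-Hochberg over all 16679 genes tested, threshold 0.05. The standard error of a log2 fold change was taken as its size over the root of F, and intervals are 95% intervals from the residual degrees of freedom. The fit was tested on simulated counts. Alternatives were RLE scaling, no filter, DESeq2 1.42.0, limma-voom 3.58.1 with and without quality weights, only the groups compared, the replicate number as a block, each library left out, and 10 libraries without saline WT 2 and bleomycin WT 4 (18812 genes tested, levels scaled over those 10).

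The 10 genes, the lists and the alternative of 10 libraries were chosen with earlier results of these data known. Named genes are the 10 genes; of the pathway lists, any gene called in 12 libraries and the 4 with the smallest p per comparison; the 2 genes nearest in profile to each of the 10 with a group mean of at least 10 CPM, of which 1 is not reported here; and the 2 most abundant genes of a marker list. Csf1r, Adgre1, Ly96, Tlr3, Tlr11, Tlr12, Sarm1, Ly6g, Calcrl, Cldn5, Tek, Acaa1a and the sex-linked genes were named after their values were seen. So were Cx3cr1 and Cdh1. Replicate libraries of a group were not copies of each other (lowest chi-square per degree of freedom 23.9). Coordinates, transcripts and shared runs are from GENCODE vM21 (GRCm38), promoter windows from RefSeq (GRCm38.p6). A motif was searched on both strands.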

Additional observations from a re-analysis of the deposited data

Results flagged for a closer look

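Within each group of 4 libraries, the CPM of each of the 10 genes was checked for a library whose gap to its nearest neighbour, as a share of the group's range, exceeds Dixon's 95% critical value. Of 30 groups 4 held such a library, and chance gives about 1 in 20.

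Tlr6 in bleomycin WT 4 was at 188 CPM, far above the other 3 bleomycin WT libraries. Tlr8 in the same library was at 5.15 CPM, far below the other 3. Tlr1 and Tlr8 in saline WT 2 were at 0 CPM, below the other 3 saline WT libraries, although 0 counts there allow up to 32.4 CPM.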

How the results depend on the processing

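None of the 10 genes was called under any of 60 settings (20 for each comparison); the smallest adjusted p was 0.217. Of 598 log2 fold changes under the alternatives, 539 kept their direction and 59 changed sign, and 14 of the 30 fold changes kept their sign throughout. Tlr9 could not be fitted with only the groups compared against saline WT. Counts of all genes called moved more. For bleomycin WT against saline WT (4 genes) they were 1 with RLE scaling, 780 with no filter, 616 with DESeq2, 319 with quality weights, 0 with only the groups compared, 2 with the replicate block, 81 in the 10 libraries and 1 to 11 with each library left out (2 without any KO library, saline WT 1 or saline WT 2, 1 without bleomycin WT 2, bleomycin WT 3, saline WT 3 or saline WT 4, and 11 without bleomycin WT 4). For bleomycin KO against bleomycin WT (0 genes) they were 243 with no filter and 1 with DESeq2. For bleomycin KO against saline WT (3 genes) they were 1 with RLE scaling, 694 with no filter, 685 with DESeq2, 12 with limma-voom, 232 with quality weights, 1 with only the groups compared, 1 with the replicate block, 121 in the 10 libraries and 0 to 18 with each library left out (0 without KO 1, KO 2, saline WT 3 or saline WT 4, 1 without KO 3, KO 4, bleomycin WT 1, bleomycin WT 2 or saline WT 1, 18 without bleomycin WT 4 and 10 without saline WT 2). Same-numbered libraries share only a number: correlations of their deviations were -0.20 to 0.07. For bleomycin WT against saline WT, among log2 fold changes of opposite sign, RLE scaling gave Tlr4 -0.051 and Myd88 -0.0062, DESeq2 gave Tlr4 -0.020, limma-voom gave Tlr4 -0.47, Tlr8 -0.29 and Tlr9 -0.60. Quality weights gave Tlr6 -0.40, Tlr9 -1.83 and Myd88 -0.39, the fit of 10 libraries gave Tlr6 -0.83 and Myd88 -0.48, the replicate block gave Tlr9 -0.20. Leaving out each library in turn gave ranges across 0 for Myd88 -0.17 to 0.66, Tlr13 -0.84 to 0.11, Tlr4 -0.22 to 0.57, Tlr6 -0.52 to 1.62, Tlr7 -0.18 to 1.59 and Tlr9 -0.080 to 1.20. For bleomycin KO against bleomycin WT, among log2 fold changes of opposite sign, quality weights gave Tlr4 -0.012, Tlr8 -0.17, Tlr9 1.11, Tlr13 -0.13 and Myd88 0.14. The fit of 10 libraries gave Tlr4 -0.063, Tlr8 -0.14, Tlr13 -0.12 and Myd88 0.080. Leaving out each library in turn gave ranges across 0 for Myd88 -0.28 to 0.059, Tlr1 -0.25 to 0.017, Tlr13 -0.13 to 0.78, Tlr4 -0.078 to 0.70, Tlr8 -0.16 to 0.43 and Tlr9 -1.08 to 0.36. For bleomycin KO against saline WT, among log2 fold changes of opposite sign, DESeq2 gave Tlr9 -0.37, limma-voom gave Tlr9 -0.71 and Myd88 0.14, quality weights gave Tlr9 -0.72. The replicate block gave Tlr9 -0.47, Tlr13 0.15 and Myd88 0.39, no filter gave Myd88 0.029. Leaving out each library in turn gave ranges across 0 for Myd88 -0.32 to 0.51, Tlr13 -0.36 to 0.34 and Tlr9 -0.29 to 0.68. The cause of these changes was not tested. Tlr9 had at most 41 counts in any library. In saline WT 2, Cd14 had 49 counts, Tlr2 22 and Tlr13 2, and the rest of the 10 genes had 0.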
